A study of Homo sapiens with 12 samples.

Results

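The heat shock proteins of the cytosol and the mitochondria were followed here through 10 genes: HSPA1A, HSPA1B, HSPA8, HSPH1, DNAJB1, HSP90AA1, HSP90AB1, HSPB1, HSPD1 and HSPE1. The members were chosen by gene symbol, as every probe that the array annotation gives to these genes, which came to 17 of the 47323 probes. All 17 probes passed the filter on dim probes, and the 10 genes were among the 13293 genes tested. RNA was measured on 12 Illumina bead arrays, 3 for each of 4 groups of human urothelial (bladder) cancer cells. One pair of groups was UM-UC9, as controls or with 1 µM rosiglitazone, an agonist of PPARG (a nuclear receptor that drives fat storage genes), for 24 hours. The other pair was UM-UC14 with hairpin RNAs (shRNA) that silence genes: one targeted FABP4, which carries fatty acids in the cytoplasm and is itself induced by PPARG, and the other, the control, was non-targeting. Both are established cell lines, and each treatment was applied to 1 line alone, so the effect of a treatment and the response of its line cannot be told apart. The labels give neither the number of hairpin sequences or clones behind the knockdown nor whether the 3 replicates of a group were separate cultures. The p-values therefore measure the spread between arrays that may be technical repeats, and the number of arrays limits the precision.

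Heat shock proteins are molecular chaperones that bind unfolded or partly folded proteins and help them to fold, to be transported or to be degraded. In the cytosol, HSP70 proteins bind short stretches of a client protein in a cycle of ATP hydrolysis, which DNAJ proteins start and HSP110 proteins help to reset, and HSP90 takes over many kinases and steroid receptors at a later stage of folding. In mitochondria, HSP60 forms a barrel in which proteins fold and HSP10 is its lid. Many of these genes are switched on together by the transcription factor HSF1 when proteins unfold, and HSP70 and HSP90 are abundant in most cultured cancer cells also without heat.

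Levels are given as log2 intensity after background correction and quantile normalization, and a gene with several probes is represented by its brightest one. A difference of 1 on this scale is a doubling of background-corrected intensity, and levels of different probes cannot be set against each other. A gene was called changed at an adjusted p below 0.05 in limma's moderated test, with Benjamini-Hochberg adjustment over all 13293 genes. Between 20892 and 22407 probes were detected on an array, and the 17 heat shock probes were detected on 12 of 12 arrays. FABP4 served as the check of the labels. It was 11.06, 11.01 and 10.82 in UM-UC9 controls and 14.61, 14.71 and 14.66 with rosiglitazone, a log2 change of 3.69. In UM-UC14 it was 13.94, 14.13 and 14.06 with the non-targeting hairpin and 10.36, 10.13 and 10.50 with the FABP4 hairpin, a log2 change of -3.71. Of 12 epithelial and urothelial markers on the array, 9 were detected on every array, whereas 4 of 8 fibroblast markers and 3 of 9 blood and endothelial markers were detected on none. Of the 11 tested epithelial markers 4 rose and 1 fell with rosiglitazone, where 17% and 19% of all genes did. With FABP4 shRNA 1 rose and 4 fell, where 14.2% and 12.2% of all genes did. UPK1B, KRT7, KRT18 and KRT19 rose (1.42, 0.81, 0.46 and 0.34) and KRT5 fell (-2.10) with the drug. KRT5 rose (1.76) and GATA3, CDH1, UPK1B and UPK2 fell (-0.78, -0.48, -0.45 and -0.40) with the hairpin. KRT5 was detected on 9 of 12 arrays. Of 4 tested fibroblast markers, LUM rose with the drug (0.75) and LUM and COL1A1 with the hairpin (0.65 and 0.90), while COL3A1, PDGFRA, PDGFRB and FAP were detected on no array. Of 6 tested blood and endothelial markers, CD68 and PECAM1 rose (1.15 and 0.53) and CD14 fell (-0.52) with the drug, and CD68 and CDH5 fell (-0.88 and -1.70) with the hairpin, while PTPRC, CD3E and VWF were detected on none. The part of these markers in the changes of the heat shock genes was not tested. In these bulk RNA samples, fewer cells of a type and less RNA per cell cannot be told apart.

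Array 1 of the non-targeting UM-UC14 group stood apart from the others of its group for most of the heat shock genes. Over all tested genes its correlation was r = 0.9875 with the average of the other non-targeting arrays and r = 0.9889 with that of the FABP4 shRNA group. The first average holds fewer arrays, which can by itself lower r, and no other array was checked in this way. Between single arrays of a group, r ran from 0.9842 to 0.9971. It lay above both other non-targeting arrays for 8 of the 10 heat shock genes (all but HSPA1A and HSPB1) and within the range of the FABP4 shRNA arrays for HSPA1B and HSPA8. Calls that rest on the non-targeting group are therefore also given without that array or against it alone. The spread is estimated over all 4 groups, and non-targeting array 1 therefore also enters the p-values of the drug comparison. With only the UM-UC9 arrays fitted, 7 of the 10 genes were called under the drug, 6 lower and 1 higher, as with all arrays. In that fit 5911 of all 13293 genes were called, 3168 lower and 2743 higher, against 4789 with all arrays. Orders of the groups, ratios of 2 genes and correlations are given with all arrays.

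Rosiglitazone lowered 6 of the 10 heat shock genes in UM-UC9 and raised 1. HSPA8, HSPA1A, HSPH1, HSP90AB1, HSPE1 and HSPA1B fell, HSPB1 rose, and DNAJB1, HSP90AA1 and HSPD1 did not pass the test. Over all genes tested in this comparison, 36.0% were called, 19% lower and 17% higher. The median log2 change of the 10 genes was -0.40, against -0.02 over all genes. The 3 treated and the 3 control arrays did not overlap for 9 of the 10 genes, 8 lower and 1 higher, where 53.9% of all genes had groups that did not overlap, 28.7% lower and 25.2% higher.

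**Figure D1:**
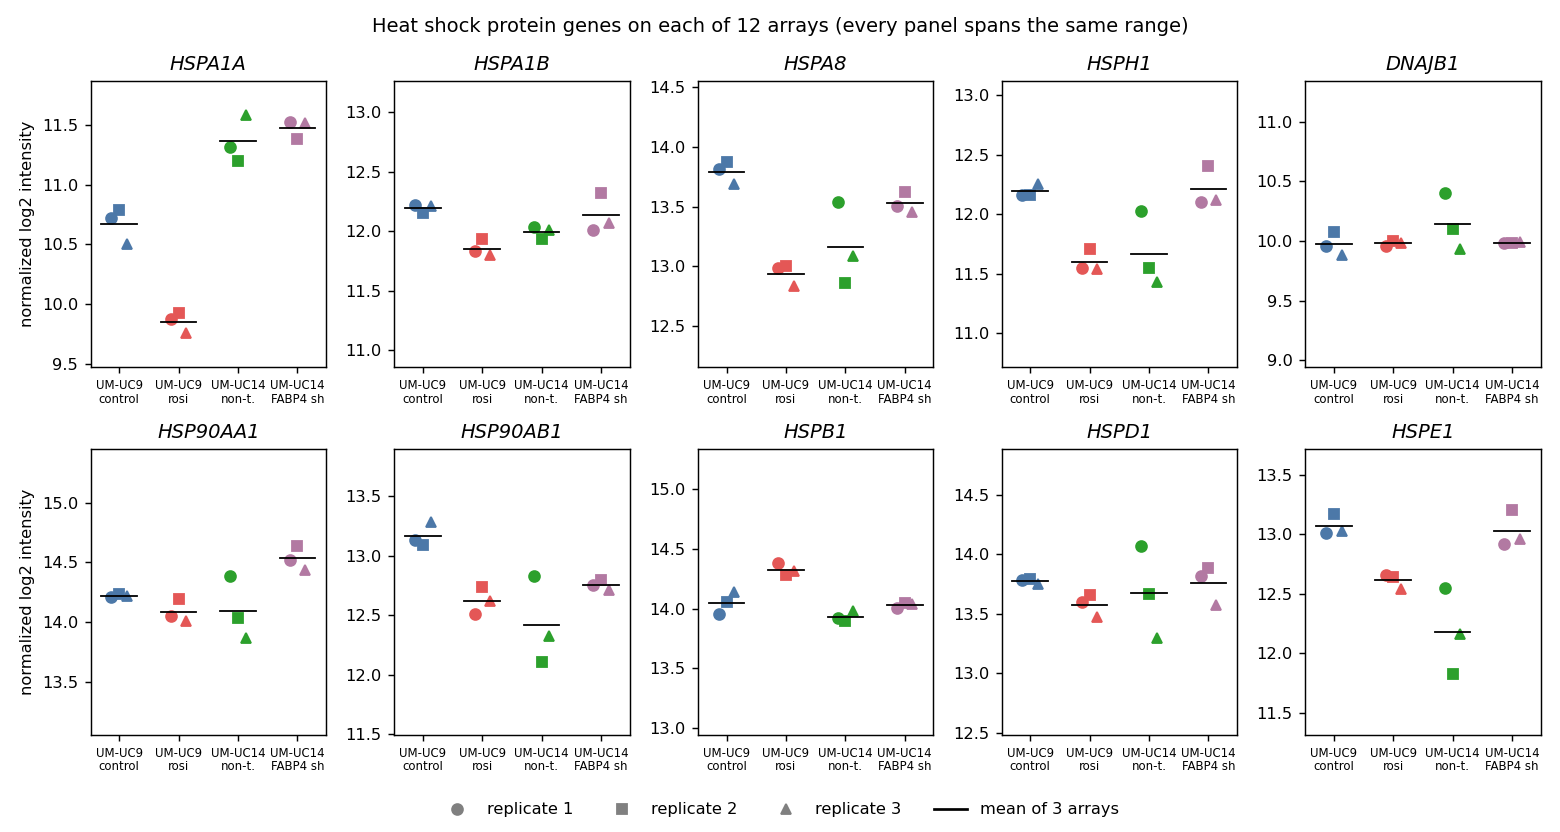
Normalized log2 intensity (vertical axis) of each gene's brightest probe on the 12 arrays, in 4 groups along the horizontal axis. Symbols give the replicate number and bars the mean of 3 arrays. The rosiglitazone arrays sit below the control arrays for 8 genes and above them for HSPB1, and in UM-UC14 the non-targeting array 1 (green circle) sits above the other two for 8 genes.

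HSPA8 and HSPA1A, both HSP70 genes, had the largest falls of the 10, and HSPA1B, the third HSP70 gene, had the smallest of the 6. HSPA8 encodes HSC70, the HSP70 that cells make at all times, which also strips clathrin from endocytic vesicles. It was 13.811, 13.875 and 13.691 in controls and 12.985, 12.999 and 12.831 with rosiglitazone. All treated arrays lay below all control arrays. The fall was 0.85 on the log2 scale, or 1.81-fold (log2 change -0.85, SE 0.14, adjusted p = 0.000448 by limma). Its second probe, annotated to another transcript of the gene, changed by -0.90 (SE 0.18, adjusted p = 0.00171 over all 25176 probes kept).

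HSPA1A and HSPA1B are neighbouring genes that encode nearly the same stress-inducible HSP70 protein. HSPA1A was 10.72, 10.79 and 10.50 in controls and 9.87, 9.93 and 9.76 with rosiglitazone, a log2 change of -0.82 (SE 0.11, adjusted p = 0.000119). HSPA1B was 12.22, 12.15 and 12.21 in controls and 11.83, 11.93 and 11.80 with rosiglitazone, a log2 change of -0.34 (SE 0.10, adjusted p = 0.0141). Both fell without overlap between the groups. The call for HSPA1B was lost without rosiglitazone array 3 (log2 change -0.31, adjusted p = 0.0553). The HSPA1A minus HSPA1B difference on an array moved by -0.48 under the drug with no overlap between groups (two-sided exact permutation p = 0.1, the smallest that 3 against 3 arrays allow, and 0.15 adjusted over 6 such comparisons). Since the transcripts are nearly identical and the probe sequences were not used here, how far each probe reads the other gene was not tested.

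The stretches before the starts of these genes are shown because HSPA8, HSPA1A and HSPA1B all fell under the drug. A further reason is that HSF1 acts through repeats of GAA and its reverse complement TTC. The motif searched was GAANNTTC, which reads the same on both strands. Its longer form of 3 units, GAANNTTCNNGAA or TTCNNGAANNTTC, contains it and was searched too. The other pairing of the units, TTCNNGAA, was not searched on its own. Unmarked bases can hold it, as just after the capitals of the HSP90AA1 stretch. Each printed stretch is the 250 bases before an annotated start, 5′ to 3′ on the gene's strand, from RefSeq on build GRCh38.p14, with motif bases in capitals.
HSPA1A, chr6:31815293-31815542, plus strand: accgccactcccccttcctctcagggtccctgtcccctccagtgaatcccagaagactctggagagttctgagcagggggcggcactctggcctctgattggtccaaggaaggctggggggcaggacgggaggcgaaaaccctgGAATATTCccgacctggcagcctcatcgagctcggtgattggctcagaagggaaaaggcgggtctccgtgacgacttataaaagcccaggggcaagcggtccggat
HSPA1B, chr6:31827488-31827737, plus strand: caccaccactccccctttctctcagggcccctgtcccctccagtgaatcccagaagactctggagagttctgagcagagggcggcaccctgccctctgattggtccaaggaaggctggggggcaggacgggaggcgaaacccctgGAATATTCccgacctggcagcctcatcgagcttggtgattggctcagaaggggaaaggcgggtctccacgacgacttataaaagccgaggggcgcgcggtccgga
HSPA8, chr11:123062137-123062386, minus strand: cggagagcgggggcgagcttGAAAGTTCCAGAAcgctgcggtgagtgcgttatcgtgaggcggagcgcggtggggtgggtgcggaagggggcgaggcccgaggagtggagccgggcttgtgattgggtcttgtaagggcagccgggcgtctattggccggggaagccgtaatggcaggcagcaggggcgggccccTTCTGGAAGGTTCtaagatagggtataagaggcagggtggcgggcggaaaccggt
DNAJB1, second annotated start, chr19:14518398-14518647, minus strand: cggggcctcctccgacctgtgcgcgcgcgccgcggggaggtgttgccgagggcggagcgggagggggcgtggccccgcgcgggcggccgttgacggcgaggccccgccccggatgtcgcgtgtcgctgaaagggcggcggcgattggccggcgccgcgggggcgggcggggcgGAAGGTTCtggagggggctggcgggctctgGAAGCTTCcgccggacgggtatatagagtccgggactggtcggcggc
HSP90AA1, second annotated start, chr14:102087045-102087294, minus strand: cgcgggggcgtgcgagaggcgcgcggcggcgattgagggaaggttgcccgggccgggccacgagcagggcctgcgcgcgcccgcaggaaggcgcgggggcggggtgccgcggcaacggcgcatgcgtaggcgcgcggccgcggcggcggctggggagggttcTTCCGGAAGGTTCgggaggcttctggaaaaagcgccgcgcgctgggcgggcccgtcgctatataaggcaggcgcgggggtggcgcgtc

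HSPA1A and HSPA1B matched at 235 of 251 aligned positions (93.6%) and held the same 8 bases, GAATATTC, at 106 and 105 bases before their starts. HSPA8 held 2 motifs of 3 units, the first of them starting 230 bases and the second 55 bases before the start. The DNAJB1 stretch held 2 of the short motifs, and the HSP90AA1 stretch 1 of 3 units. Over windows of 300 bases, 250 before and 50 after a start, the short motif was present in 9 of the 16 windows of the 10 genes and in 6.77% of all 35116 windows. The 3-unit form was present in 4 of the 16 windows, those of HSPA8, HSP90AA1, HSP90AB1 and HSPD1, and in 0.49% of all windows. Neither form occurred in the windows of HSPH1 and HSPE1, which says only that these letters are not in those 300 bases. Of the genes that fell under the drug, HSPA8, HSPA1A, HSPA1B and HSP90AB1 carried the short motif and HSPH1 and HSPE1 did not. The motif was also in a window of HSPB1, which rose, and of DNAJB1, HSP90AA1 and HSPD1, which did not pass the test. The part of the motif in these changes was not tested.

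The partners of HSP70 split. HSPH1, the HSP110 protein that exchanges the nucleotide of HSP70, was 12.16, 12.16 and 12.26 in controls and 11.55, 11.71 and 11.54 with rosiglitazone. It fell by 0.59 on the log2 scale, with no overlap (log2 change -0.59, SE 0.14, adjusted p = 0.0052). DNAJB1, the HSP40 protein that starts the HSP70 cycle, was 9.96, 10.08 and 9.88 in controls and 9.96, 10.00 and 9.98 with rosiglitazone. Its log2 change was 0.01 with a 95% interval of -0.23 to 0.25, and it was the 1 gene of the 10 whose groups overlapped.

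Of the HSP90 genes, HSP90AB1 fell and the brightest probe of HSP90AA1 did not pass the test. HSP90AB1, the HSP90 made at all times, was 13.13, 13.09 and 13.28 in controls and 12.51, 12.73 and 12.62 with rosiglitazone, a log2 change of -0.55 (SE 0.15, adjusted p = 0.0108). HSP90AA1, the HSP90 gene that heat induces, was 14.21, 14.23 and 14.22 in controls and 14.05, 14.19 and 14.01 with rosiglitazone, a log2 change of -0.14 (95% interval -0.40 to 0.12, adjusted p = 0.406). The groups did not overlap for either gene. The other probes of HSP90AA1, both annotated to another transcript of the gene, were lower in the drug group, with log2 changes of -0.45 (SE 0.16, adjusted p = 0.0448) and -0.50 (SE 0.15, adjusted p = 0.0247). With the 3 probes averaged, HSP90AA1 changed by -0.36 and passed the test narrowly (adjusted p = 0.0499). Only 0.397% of the probes on the array were brighter than the brightest HSP90AA1 probe, whose raw intensity was 14382 to 25085, where the brightest probe of any array reached 33570 to 41731. Whether so bright a probe reads differences in full was not tested.

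HSPB1, the small heat shock protein HSP27 that holds unfolded proteins without ATP, was the 1 gene that rose under rosiglitazone. It was 13.95, 14.05 and 14.14 in controls and 14.38, 14.28 and 14.31 with the drug. The groups did not overlap, and the log2 change was 0.28, a rise of 1.21-fold (SE 0.08, adjusted p = 0.0189). The call was lost without control array 1 (log2 change 0.23, adjusted p = 0.083) and without rosiglitazone array 1 (0.25, adjusted p = 0.07055), and when arrays were scaled to their medians alone (0.25, adjusted p = 0.0723).

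The mitochondrial chaperonin genes lie head to head on chromosome 2, HSPD1 for HSP60 and HSPE1 for its lid HSP10, and are known to share the promoter between them. The 104 bases between their outer annotated starts, chr2:197500275-197500378 on build GRCh38.p14 (RefSeq, read on the strand of HSPE1), are shown as the stretch that both genes start from, and they hold neither motif.
Between the HSPD1 and HSPE1 starts: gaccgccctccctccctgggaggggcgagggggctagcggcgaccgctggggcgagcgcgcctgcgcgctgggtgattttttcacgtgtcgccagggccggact
The motif of HSPD1 lay inside the gene, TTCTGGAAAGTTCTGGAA at chr2:197500068-197500085 (minus strand), where the search found a 3-unit match in each direction, 245 bases before the second annotated start of HSPD1.

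HSPE1 was 13.01, 13.17 and 13.03 in UM-UC9 controls and 12.66, 12.64 and 12.54 with rosiglitazone, a log2 change of -0.46 (SE 0.15, adjusted p = 0.0285). The groups did not overlap, but the call was lost when any 1 of the 6 UM-UC9 arrays was left out (log2 changes -0.49 to -0.41, adjusted p from 0.0521 to 0.0981) and when its 2 probes were averaged (-0.27, adjusted p = 0.108). The spread comes from all 4 groups, and with any 1 of the 12 arrays left out the adjusted p ranged from 0.0037 to 0.0981. HSPD1 was 13.78, 13.79 and 13.75 in controls and 13.60, 13.66 and 13.47 with the drug, a log2 change of -0.20 (95% interval -0.53 to 0.14, adjusted p = 0.353). Its arrays did not overlap, yet its 4 probes had changes of both signs, -0.20, -0.10, 0.18 and 0.34, and none passed the test. The second HSPE1 probe changed by -0.09 (SE 0.25, adjusted p = 0.849).

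**Figure D2:**
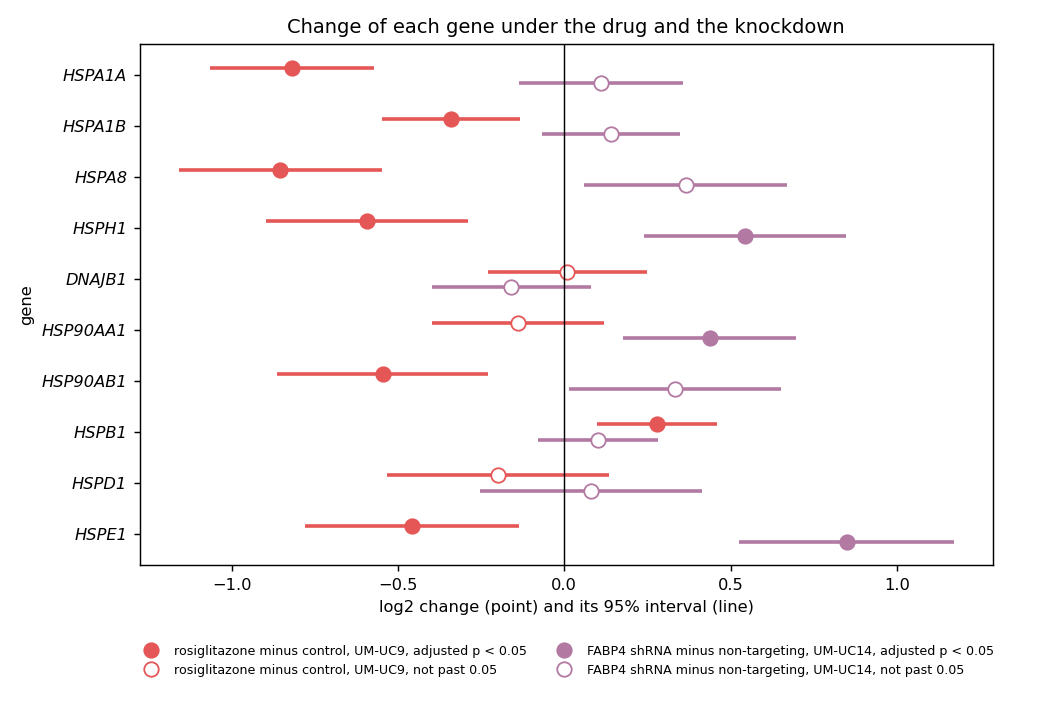
Log2 change (point) with its 95% interval before adjustment for the number of genes (line) for the 10 genes, under rosiglitazone in UM-UC9 and under FABP4 shRNA in UM-UC14. Filled points passed an adjusted p of 0.05. The drug values of HSPA1A and HSPA8 lie at -0.82 and -0.85, and the largest knockdown value is that of HSPE1 at 0.85.

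FABP4 knockdown in UM-UC14 raised 3 of the 10 genes, HSPE1, HSPH1 and HSP90AA1. None of the 10 was called lower by limma, also at an unadjusted p below 0.05, where 5 were higher. Over all genes tested in this comparison, 26.3% were called, 14.2% higher and 12.2% lower. The median log2 change of the 10 genes was 0.24, against 0.02 over all genes. Without non-targeting array 1, 5 of the 10 were called, all higher (HSPA8 and HSP90AB1 joined), while 39.5% of all genes were called, 21.2% higher and 18.2% lower. With that array as the only control, HSPE1 rose, DNAJB1 fell and the other 8 did not pass, with 14.6% of all genes called, 7.00% higher and 7.63% lower. The groups did not overlap for 4 genes, all higher in the knockdown (the 3 called and HSPB1), where 36.5% of all genes had groups that did not overlap, 20.1% with the knockdown higher and 16.4% with it lower.

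HSPE1, the HSP10 lid, moved most. It was 12.55, 11.82 and 12.16 with the non-targeting hairpin and 12.92, 13.21 and 12.96 with the FABP4 hairpin. The groups did not overlap. The log2 change was 0.85, a rise of 1.80-fold (SE 0.15, adjusted p = 0.00142). It was 1.04 without non-targeting array 1 and 0.48 against that array alone (adjusted p = 0.0308), and passed the test in both. Its second probe had a change of 0.42 that did not pass (SE 0.25, adjusted p = 0.261), nor did it at 0.30 without that array or at 0.67 against it alone.

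HSPD1, its partner, was 14.07, 13.67 and 13.30 with the non-targeting hairpin and 13.82, 13.88 and 13.57 with the FABP4 hairpin. The groups overlapped, and the log2 change of 0.08 had a 95% interval of -0.25 to 0.41 (adjusted p = 0.752). Against non-targeting array 1 alone it was -0.31. It was -0.11 without non-targeting array 3, and no setting gave a call. The HSPE1 minus HSPD1 difference on an array rose from -1.50 ± 0.35 (SD, n = 3) to -0.73 ± 0.15 (SD, n = 3), without overlap, at the smallest two-sided exact permutation p of 0.1 (0.15 adjusted over 6 comparisons).

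HSPH1 was 12.03, 11.55 and 11.43 with the non-targeting hairpin and 12.11, 12.41 and 12.12 with the FABP4 hairpin, a log2 change of 0.54 (SE 0.14, adjusted p = 0.0128). HSP90AA1 was 14.38, 14.04 and 13.87 against 14.52, 14.64 and 14.44, a log2 change of 0.44 (SE 0.12, adjusted p = 0.017). For both genes non-targeting array 1 lay just below the lowest knockdown array. Without that array the changes were 0.72 and 0.58, both called, and against it alone 0.18 and 0.15 (adjusted p of 0.413 and 0.43). Both calls were also lost without non-targeting array 2 or 3 or without FABP4 shRNA array 2, where the changes were 0.42 to 0.48 for HSPH1 (adjusted p from 0.05035 to 0.0592) and 0.32 to 0.41 for HSP90AA1 (adjusted p from 0.058 to 0.0681). All 3 HSP90AA1 probes rose, and the dimmest of them, at 7.35, 6.60 and 6.72 against 7.74, 7.82 and 7.77, had a log2 change of 0.89 (SE 0.15, adjusted p = 0.00145). The dimmest probe was called also without non-targeting array 1 (1.11) and against it alone (0.43, adjusted p = 0.0375). The middle probe was called at 0.69 without it and not at 0.06 against it alone.

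HSPA8 and HSP90AB1, the forms of HSP70 and HSP90 made at all times, depended on the choice of controls. HSPA8 was 13.54, 12.86 and 13.08 with the non-targeting hairpin and 13.50, 13.62 and 13.46 with the FABP4 hairpin, a log2 change of 0.37 (95% interval before adjustment 0.06 to 0.67, adjusted p = 0.0723). HSP90AB1 was 12.83, 12.11 and 12.32 against 12.76, 12.80 and 12.71, a log2 change of 0.33 (adjusted p = 0.112). Non-targeting array 1 lay among the knockdown arrays for HSPA8 and above them for HSP90AB1, and the other two lay below all of them for both. Without that array both rose, HSPA8 by 0.56 (adjusted p = 0.000992) and HSP90AB1 by 0.54 (adjusted p = 0.00112). Against that array alone the changes were -0.01 and -0.08, and neither passed. When arrays were scaled to their medians alone, with all 3 controls, HSPA8, HSP90AB1 and HSPA1B passed (0.58, 0.54 and 0.36).

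The inducible HSP70 genes did not pass the test after knockdown. HSPA1A was 11.31, 11.20 and 11.58 with the non-targeting hairpin and 11.53, 11.38 and 11.52 with the FABP4 hairpin (log2 change 0.11, 95% interval -0.14 to 0.36, adjusted p = 0.518). HSPA1B was 12.03, 11.94 and 12.01 against 12.01, 12.32 and 12.06 (log2 change 0.14, 95% interval -0.07 to 0.35, adjusted p = 0.312). The groups overlapped for both. DNAJB1 was 10.40, 10.10 and 9.93 against 9.98, 9.98 and 9.99 (log2 change -0.16, adjusted p = 0.317), with non-targeting array 1 highest of the 12 arrays. Against that array alone DNAJB1 fell by 0.42 (adjusted p = 0.0209), and without it the change was -0.03. HSPB1 was 13.92, 13.89 and 13.98 against 14.00, 14.05 and 14.04, a log2 change of 0.10 (adjusted p = 0.415) between groups that did not overlap.

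**Figure D3:**
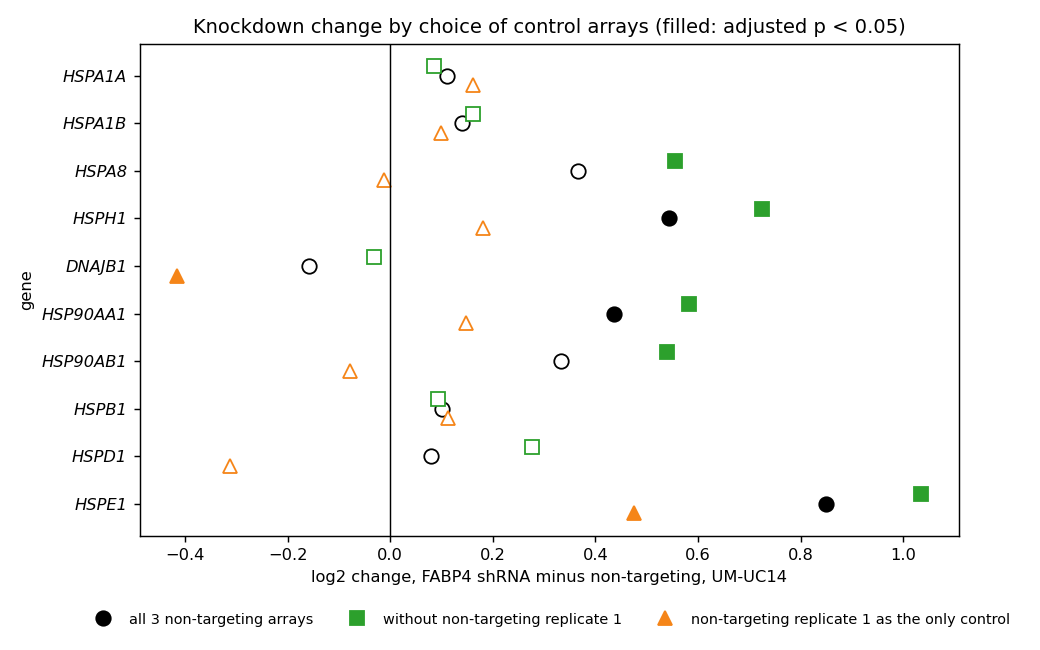
Log2 change of each gene after FABP4 knockdown in UM-UC14 with all 3 non-targeting arrays as controls, without non-targeting replicate 1, and against that array alone. Filled symbols passed an adjusted p of 0.05. HSPE1 is filled under all 3 choices, and HSPA8 moves from 0.56 to -0.01.

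Since the drug raises FABP4 and the hairpin lowers it, the changes were also set against each other in 1 contrast, the knockdown change minus the rosiglitazone change. It was above 0 and past the test for 7 of the 10 genes and below 0 and past it for 0, and DNAJB1, HSPB1 and HSPD1 did not pass (0 of 10 lower also at an unadjusted p below 0.05 by limma). Over all genes 41.5% passed, 22.4% above 0 and 19.1% below. The largest differences were 1.31 for HSPE1 (SE 0.21, adjusted p = 0.000371), 1.22 for HSPA8 (SE 0.20, adjusted p = 0.0004) and 1.14 for HSPH1 (SE 0.20, adjusted p = 0.000645). They were 0.93 for HSPA1A, 0.88 for HSP90AB1, 0.58 for HSP90AA1 and 0.48 for HSPA1B, with adjusted p from 0.000612 to 0.0153. Those of HSPE1, HSPA8 and HSPH1 were 1.49, 1.41 and 1.32 without non-targeting array 1 and 0.93, 0.84 and 0.77 with it as the only control, called in each case. Those of HSPA1A and HSPA1B were 0.90 and 0.50 without it and 0.98 and 0.44 with it alone, and that of HSP90AB1 was 1.09 and 0.47, all called. For HSPA8, HSPA1A, HSP90AB1 and HSPA1B the difference came with a drug change that passed and a knockdown change that did not. For HSP90AA1 it was the other way round, and for HSPE1 and HSPH1 both changes passed. Without non-targeting array 1 the count was 8, HSPD1 joining with 0.48 (adjusted p = 0.028), where 50.8% of all genes passed, 27.4% above 0 and 23.4% below. With that array as the only UM-UC14 control 6 were above 0 and 1 below, where 35.2% of all genes passed (18.5% above and 16.8% below): HSP90AA1 no longer passed (0.29, adjusted p = 0.131) and DNAJB1 did, at -0.42 (adjusted p = 0.0229). The contrast compares 2 treatments in 2 lines, and the drug, the hairpin and the line cannot be told apart in it.

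Between the control groups of the lines, non-targeting UM-UC14 minus untreated UM-UC9, HSPA1A was higher and HSPA8, HSPH1, HSP90AB1 and HSPE1 were lower in UM-UC14. Over all genes 67.8% were called, 33.2% higher and 34.6% lower, so that 5 called genes of 10 is no more than the share of all genes. HSPA1A was 1.62-fold higher in UM-UC14 (log2 difference 0.70, SE 0.11, adjusted p = 9.46e-05), and HSPA1B differed by -0.20 (adjusted p = 0.08). HSPE1 was 1.85-fold lower (log2 difference -0.89, SE 0.15, adjusted p = 0.000117) and HSP90AB1 1.68-fold lower (-0.75, SE 0.15, adjusted p = 0.000466). HSPA8 differed by -0.63 (adjusted p = 0.00126) and HSPH1 by -0.53 (adjusted p = 0.00447). Without non-targeting array 1 HSPA1A was at 0.72, HSPE1 at -1.08 and HSP90AB1 at -0.95, and with that array alone they were at 0.65, -0.52 and -0.34, called under both. For HSPA8 and HSPH1 the values without it were -0.82 and -0.71, and HSP90AA1 and HSPD1 were called too (-0.27 and -0.29), with 70.1% of all genes called, 34.1% higher and 36.0% lower. With that array alone HSPA8 and HSPH1 were not called (-0.25 and -0.16), DNAJB1 was (0.43, adjusted p = 0.00345), and 61.3% of all genes were, 31.2% higher and 30.1% lower. The dimmest HSP90AA1 probe stood out among the probes, 2.45-fold lower in UM-UC14 (log2 difference -1.30, SE 0.15, adjusted p = 3.99e-06), where the other HSP90AA1 probes differed by -0.13 and -0.17 and did not pass. Its difference was -1.52 without non-targeting array 1 and -0.84 with it alone, both called, while the other probes were called without that array (-0.27 and -0.38) and not with it alone (0.16 and 0.24).

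Across the 4 groups, the order of the means set the genes apart. HSPA1A rose in steps without overlap from rosiglitazone-treated UM-UC9 to control UM-UC9 to non-targeting UM-UC14, and the UM-UC14 groups overlapped. HSPA1B, HSPA8, HSPH1, HSP90AA1 and HSPD1 were each lowest in the rosiglitazone group, next to the non-targeting UM-UC14 group, from which it was separated without overlap for HSPA1B alone. HSP90AB1 and HSPE1 were lowest in non-targeting UM-UC14, overlapping the rosiglitazone group. Control UM-UC9 was the highest group for HSPA1B, HSPA8, HSP90AB1, HSPD1 and HSPE1. It did not overlap the FABP4 shRNA group below it for HSPA8 and HSP90AB1, and overlapped it for the other 3. HSPB1 was highest with rosiglitazone, without overlap with control UM-UC9, and DNAJB1 had no neighbouring groups that were separated.

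After each line's own mean was subtracted, HSPH1 ran close to 5 of the other genes over the 12 arrays. Pearson's r of HSPH1 was 0.93 with HSP90AB1, 0.91 with HSPA8, 0.91 with HSPE1, 0.88 with HSP90AA1 and 0.86 with HSPA1B. HSPA8 had r = 0.93 with HSP90AB1, 0.87 with HSPA1B, 0.85 with HSPA1A and 0.81 with HSPE1, and HSP90AA1 had r = 0.89 with HSPE1. HSPA1A and HSPA1B had r = 0.75, HSPD1 and HSPE1 r = 0.50, and HSP90AA1 and HSP90AB1 r = 0.76. HSPB1 ran against HSPA1A (r = -0.77), and DNAJB1 was unrelated to HSPA8 and HSPH1 (r = 0.08 and 0.01). These values describe 12 arrays that share 4 groups and, in UM-UC14, the array that stood apart. By the same measure the genes most like HSPA8 were RBM12 (r = 0.99), GEMIN4 (r = 0.987) and ITPK1-AS1 (r = 0.986). Those most like HSPA1A were CYP1A2 (r = 0.972), NUFIP2 (r = 0.971) and MSLN (r = 0.969). LARP4B, PUS7 and NAA50 were closest to HSPA1B (r = 0.935 to 0.942), and IDE, EPAS1 and SLC27A2 to HSPD1 (r = 0.937 to 0.945).

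Probe by probe, 9 of the 17 probes were lower and 1 higher under rosiglitazone, where 14.7% and 13.9% of the 25176 kept probes were, and 5 were higher and 0 lower after knockdown, where 11.4% and 10% were (0 of 17 lower also at an unadjusted p below 0.05 by limma). Without non-targeting array 1, 8 of the 17 were higher after knockdown, against 16.9% of all kept probes. With it as the only control 2 were higher and 1 lower, against 4.69% and 5.28%. Probes of 1 gene share their transcripts and are not replicates. The dimmest HSPD1 probe, annotated to another transcript than the other 3, had a raw intensity of 65.2 to 86.2, near the median of the arrays (52.8 to 62.6). Its log2 values were 5.02, 5.49 and 5.20 in UM-UC9 controls and 5.53, 5.51 and 5.70 with rosiglitazone, a change of 0.34 (SE 0.13, adjusted p = 0.059). The 2 brighter HSPD1 probes, at a raw intensity of 6804 to 16348, changed by -0.20 and -0.10.

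**Figure D4:**
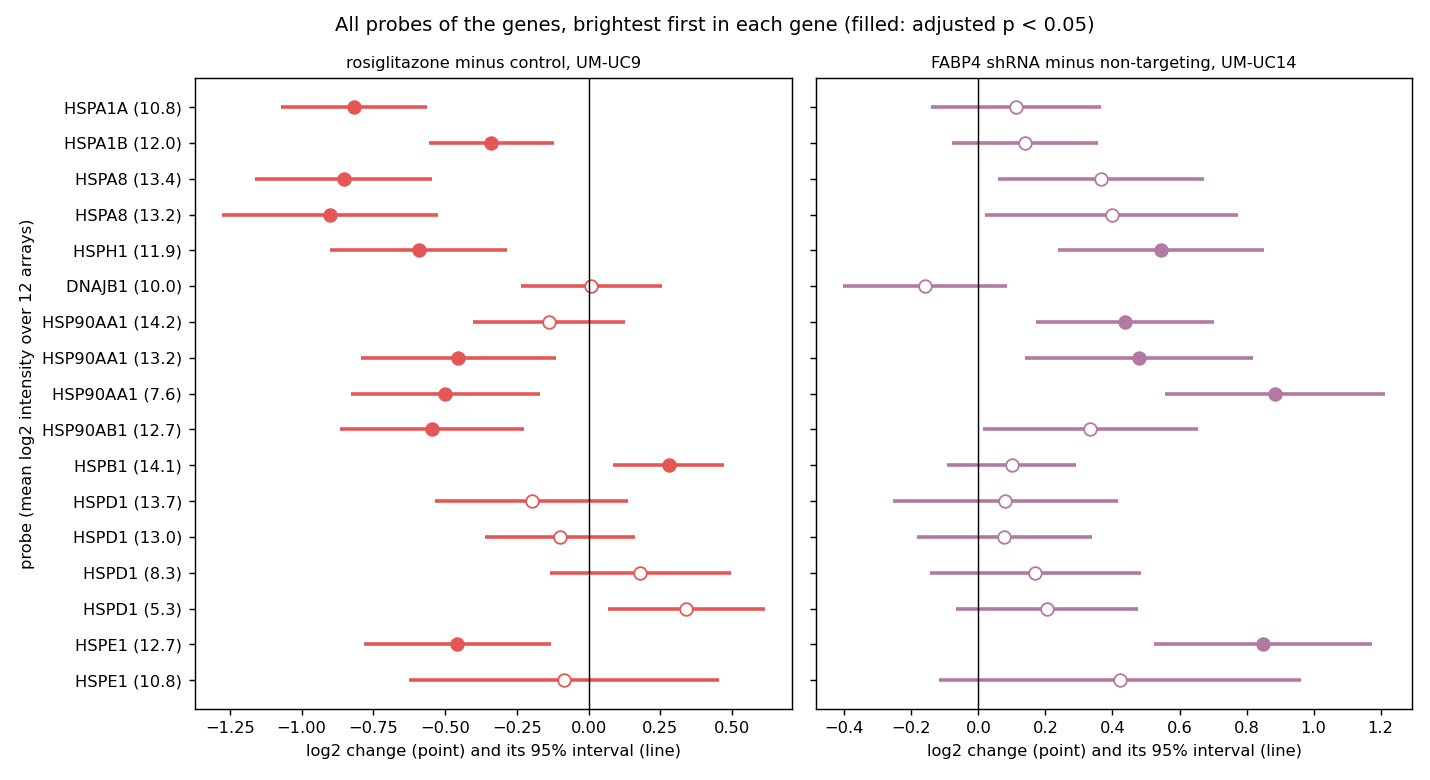
Log2 change (point) with its 95% interval (line) for the 17 probes under rosiglitazone (left) and FABP4 shRNA (right), with the mean log2 intensity over 12 arrays beside each gene name. Filled points passed an adjusted p of 0.05 over 25176 probes. The 3 HSP90AA1 probes all lie above 0 after knockdown, and the 4 HSPD1 probes lie on both sides of 0 under the drug.

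Other genes of the heat shock system were counted from 8 lists. Of the 26 tested cochaperones of HSP90 and HSP70, which load and time these chaperones, 11 fell and 1 rose under rosiglitazone (median log2 change -0.23, against -0.02 over all genes), where 19% and 17% of all genes did. UNC45A, which serves myosin and HSP90, fell by 0.87 on the log2 scale (adjusted p = 0.000614). STIP1, known as HOP, which hands clients from HSP70 to HSP90, was 11.79, 11.75 and 11.94 in controls and 11.02, 11.18 and 10.88 with the drug, a change of -0.80 (adjusted p = 0.0093). CHORDC1, an HSP90 cochaperone, changed by -0.80 as well (adjusted p = 0.00157). After knockdown, 6 of the 26 rose and 2 fell, where 14.2% and 12.2% of all genes did (median 0.14, against 0.02). Among those that rose were STIP1 (0.67, adjusted p = 0.0313), HSPBP1 (0.64, adjusted p = 0.00998) and FKBP4 (0.63, adjusted p = 0.0156). STIP1 was 11.31, 10.28 and 10.29 with the non-targeting hairpin and 11.35, 11.21 and 11.32 with the FABP4 hairpin, so that non-targeting array 1 lay within the knockdown range. Without it 9 of the 26 rose and 4 fell, where 21.2% and 18.2% of all genes did. Against it alone 2 fell and 0 rose by limma (2 at an unadjusted p below 0.05), where 7.63% of all genes fell and 7.00% rose, with STIP1 at -0.01, FKBP4 at 0.13 and HSPBP1 at 0.21.

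Of the 30 tested DNAJ proteins other than DNAJB1, 5 fell and 2 rose under rosiglitazone, and 3 rose and 2 fell after knockdown, shares no larger than those of all genes. Without non-targeting array 1, 7 rose and 4 fell after knockdown, where 21.2% and 18.2% of all genes did. Against that array alone the median log2 change of the 30 was 0.04, against 0.01 over all genes. DNAJA1, a major partner of HSC70, was 12.73, 12.61 and 12.66 in UM-UC9 controls and 11.71, 11.97 and 11.82 with the drug. It fell by 0.83 without overlap (log2 change -0.83, SE 0.13, adjusted p = 0.000225), while DNAJB1 was at 0.01. HSCB, the DNAJ protein of mitochondrial iron-sulphur assembly, and DNAJC16 fell as well (log2 changes -0.65 and -0.59). After knockdown DNAJC12 and DNAJB4 fell (-0.83 and -0.75) and DNAJC2, a partner of HSPA14 at the ribosome, rose (0.52, adjusted p = 0.0049). DNAJB4 no longer passed against non-targeting array 1 alone (-0.34), while DNAJC12 and DNAJC2 did.

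The other HSP70 and HSP110 genes did not move as 1 group. Of 10 tested, 1 rose and 1 fell under rosiglitazone, where 17% and 19% of all genes did. They were HSPA2 (0.59, adjusted p = 0.0167) and HSPA4, an HSP110 protein (-0.52, adjusted p = 0.00566). After knockdown 2 rose and 2 fell, where 14.2% and 12.2% of all genes did. The counts were the same without non-targeting array 1, where 21.2% of all genes rose and 18.2% fell. Against that array alone the median log2 change of the 10 was -0.12, against 0.01 over all genes. HSPA6, an HSP70 that human cells make almost only under stress, was 7.70, 7.07 and 6.08 with the non-targeting hairpin and 4.90, 5.19 and 4.86 with the FABP4 hairpin. It fell by 1.97 on the log2 scale without overlap (log2 change -1.97, SE 0.28, adjusted p = 0.000383), in the opposite direction to HSPE1, HSPH1 and HSP90AA1. The change was -1.59 without non-targeting array 1 and -2.72 against that array alone, and it passed under both. HSPA7, a near copy of HSPA6, had a change of -0.21 that did not pass, and how far their probes read each other was not tested. HSPA13 fell by 1.28 (adjusted p = 0.00207) and HSPA14 rose by 0.79 (adjusted p = 0.000597), both also without non-targeting array 1 and against it alone. HSPA9, the mitochondrial HSP70, had log2 changes of -0.06 under the drug and 0.01 after knockdown.

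Of the 18 mitochondrial chaperones and proteases, 4 fell and 0 rose under rosiglitazone, near the share of all genes that fell. Among them were HSCB, CLPB, a disaggregase (-0.53, detected on 5 of 12 arrays), and PMPCA, a subunit of the protease that removes import signals (-0.48). By limma 1 of the 18 was higher at an unadjusted p below 0.05. After knockdown 3 of the 18 rose and 1 fell, where 14.2% and 12.2% of all genes did. Without non-targeting array 1, 6 rose and 3 fell, where 21.2% and 18.2% of all genes did, so that the count of those that rose was above that share. With all arrays DNLZ, which keeps HSPA9 soluble, rose by 0.57 and PMPCA by 0.38, and PMPCB, the partner subunit, fell by 0.39. Of the 15 genes of the cytosolic chaperonin and prefoldin, which fold actin and tubulin, 3 fell and 1 rose under the drug, where 19% and 17% of all genes did, with CCT2 at -0.63, CCT3 at -0.58 and CCT6B at 0.72. After knockdown 3 of the 15 rose and 1 fell, where 14.2% and 12.2% of all genes did, with CCT5 at 0.62, CCT2 at 0.49 and CCT6B at -0.49. Without non-targeting array 1, 5 of the 15 rose and 1 fell, where 21.2% and 18.2% of all genes did. Against non-targeting array 1 alone 0 of these 15 and 0 of the 18 mitochondrial genes rose by limma, and at an unadjusted p below 0.05 they were 0 and 1. The changes of DNLZ, PMPCA, CCT5, CCT2 and PMPCB were then -0.04, 0.13, 0.00, 0.12 and -0.21. The change of CCT6B was of the same size as with all controls, -0.47, and missed the threshold (adjusted p = 0.0571). Of 4 other small heat shock proteins tested, IFT25, named HSPB11 on the list, rose under the drug (0.39, adjusted p = 0.00641), and HSPB8, which works with BAG3, fell after knockdown (-0.70, adjusted p = 0.0429; 0.03 against non-targeting array 1 alone).

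The transcription factor HSF1 itself was dim. It was 5.94, 5.71 and 5.74 in UM-UC9 controls and 6.01, 5.77 and 5.93 with rosiglitazone, a log2 change of 0.11 (adjusted p = 0.707). In UM-UC14 it was 6.19, 5.58 and 5.16 with the non-targeting hairpin and 6.14, 6.12 and 6.31 with the FABP4 hairpin, a log2 change of 0.55 (adjusted p = 0.0475) between groups that overlapped. It was 0.82 without non-targeting array 1 and 0.00 against it alone. HSF2 was not tested here. HSF2BP, which binds HSF2, fell under rosiglitazone (-0.67, adjusted p = 0.000755). Of 18 other tested genes that HSF1 is known to induce, DNAJA1 and HSPB8 among them, 8 fell and 2 rose under rosiglitazone, where 19% and 17% of all genes did (median -0.24, against -0.02). After knockdown 6 rose and 2 fell, where 14.2% and 12.2% of all genes did (median 0.19, against 0.02). Those that went against the larger number were ATF3, HMOX1 and HSPB8. ATF3, a stress transcription factor, changed by 1.53 under the drug and -2.42 after knockdown, and HMOX1, a heme oxygenase, by 1.11 under the drug. The part of HSF1 in the changes of these 18 genes was not tested. The stress-induced HSPA6 was not on this list: it changed by -0.18 under the drug, which did not pass, and by -1.97 after knockdown, which did. ATF3 kept its knockdown call without non-targeting array 1 and against it alone, at -2.26 and -2.73. Without that array 8 of the 18 rose and 2 fell, where 21.2% and 18.2% of all genes did. Against it alone the median log2 change of the 18 was 0.08, against 0.01 over all genes. The lists overlap, and 12 tested genes are counted in a pair of them. STIP1, FKBP4, CHORDC1 and BAG3 stand on both the cochaperone and the HSF1 list, and DNAJA1, HSPA4, HSPA4L, HSPB8 and CRYAB on a family list and the HSF1 list. HSPA9, DNAJA3 and HSCB stand on a family list and the mitochondrial list.

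**Figure D5:**
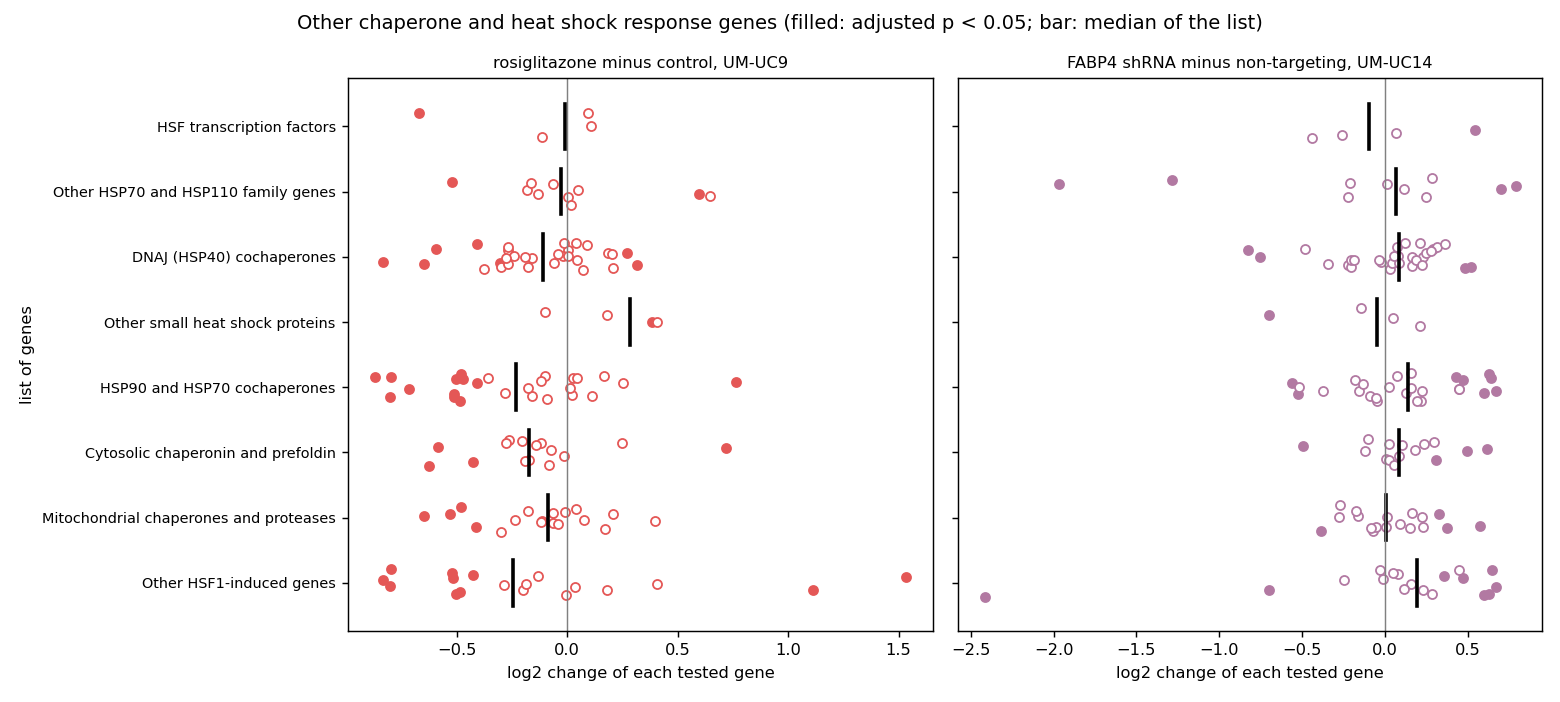
Log2 change of each tested gene (point) in 8 lists of chaperone and heat shock response genes under rosiglitazone (left) and FABP4 shRNA (right). Filled points passed an adjusted p of 0.05, vertical bars give the median of a list, and points are spread vertically for visibility. Cochaperones of HSP90 and HSP70 lie mostly below 0 under the drug, with a median of -0.23, and HSPA6 and ATF3 lie far below 0 after knockdown, at -1.97 and -2.42.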

How the data were processed

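The submitters measured total RNA as biotin-labelled cRNA on 12 arrays, per the labels. The authors deposited, per the file headers, a raw linear intensity and a detection p-value for each probe, with no background subtraction found in the values. The authors also deposited log2 values that were quantile normalized, which was checked on the values. The labels do not name the scanner software. Raw intensities were processed with limma 3.58.1 in R 4.3.3: neqc (normexp background from the detection p-values, offset 16, quantile normalization, log2); since the normalized arrays share 1 distribution, a change common to all genes is not measurable. Probes with detection p below 0.05 on at least 3 arrays were kept (25176), and the brightest kept probe stood for each of 13293 genes. Probes were named by the annotation of the array, with 1 gene for 30113 probes, several for 8 and none for 17202, and 30074 of the first matched RefSeq. One model with a mean for each of the 4 groups was fitted with lmFit and eBayes (8 residual and 5.43 prior degrees of freedom), with Benjamini-Hochberg adjustment over all genes, and likewise over all kept probes for the probe values. Differences between 2 genes were tested by exact permutation of 3 against 3 arrays. The script was tested on simulated data. Promoter windows were matched by symbol for 10 of 10 genes, and HSPA1A and HSPA1B were aligned with Biopython 1.88.

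The 10 genes and the chaperone lists were chosen with earlier results of these data known. Named genes were the 10, FABP4 and HSF1, up to 3 called genes with the largest change in each list for each treatment, and the 3 genes most correlated with HSPA1A, HSPA1B, HSPA8 and HSPD1. HSPA7, HSPA9, BAG3, other genes shared by 2 lists and the markers named, outside this rule, were chosen after their values were seen. Alternatives covered background correction, scaling, the authors' processed values, the detection filter, the choice of probe, array weights, the samples fitted, a replicate block and each array left out.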

Additional observations from a re-analysis of the deposited data

How the results depend on the processing

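The 7 calls under rosiglitazone, the 3 after knockdown, the 7 of the difference and the 5 between lines kept their direction under all alternatives run, and the count of heat shock genes called after knockdown was the least stable. That count of 3 became 6 with median scaling, 5 with array weights and 1 when only the groups compared were fitted, and it ranged from 1 to 5 with 1 array left out (5 without non-targeting array 1, and 1 without non-targeting array 2 or 3 or FABP4 shRNA array 2). Over all genes, median scaling called 3701 after knockdown (2590 higher and 1111 lower) and array weights 4850, against 3502 in the main fit. With 1 array left out the knockdown count of all genes ranged from 2377 to 5248. The count between the lines went from 5 to 8 with median scaling, where 8926 of all genes were called (3529 higher and 5397 lower), against 9010 in the main fit. Over all genes the knockdown count of 3502 became 1945 with non-targeting array 1 as the only control and 1779 when only the groups compared were fitted, where fewer arrays enter. Median scaling in place of quantile normalization moved the median of all genes from 0.04 to 0.15 for the difference and from -0.02 to -0.15 between the lines, and the share of calls that were higher from 53.8% to 70.0% after knockdown and from 54.0% to 66.9% for the difference. Changes of sign were seen only for values that did not pass the test in the main fit. Some of these passed in another setting, such as DNAJB1 between lines at 0.28 without non-targeting array 3 and HSPD1 between lines at -0.29 without non-targeting array 1. With median scaling DNAJB1 was at -0.0472 under rosiglitazone, 0.029 for the difference and -0.0346 between lines, and HSPB1 at 0.0224 for the difference. With the mean of the probes HSPD1 was at 0.0552 under rosiglitazone. With non-targeting array 1 as the only control, the knockdown changes of HSPA8, HSP90AB1 and HSPD1 were -0.013, -0.0781 and -0.31, the difference for HSPD1 was -0.11, and HSP90AA1 and HSPD1 were at 0.16 and 0.29 between lines. With 1 array left out, DNAJB1 ranged from -0.0347 to 0.0613 under rosiglitazone, and HSPD1 from -0.11 to 0.28 after knockdown and from -0.29 to 0.0927 between lines. The causes of these moves were not tested.

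Same-numbered arrays of the groups compared were not paired: their deviations correlated at -0.04 to 0.15, not above 0.1 in every pair. With the replicate number as a block, 7, 3, 7 and 5 of the 10 genes were called for the drug, the knockdown, their difference and the lines, as without it, and 4705, 3368, 5411 and 8942 of all genes. The probe values with other choices of non-targeting arrays were added after seeing the data. The slide as a block was not run, because the files used here name no slide. All 17 probes were detected on every array, and among the 10 genes dim signal limits the dimmest HSPD1 probe. Of the other genes named, HSPA2, DNAJC12, DNAJC16 and CLPB were detected on 10, 6, 11 and 5 of 12 arrays, and HSF1, HSPA6, HSPA7 and HSPB8 were dim in at least 1 line.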
